A study of Mus musculus with 4 samples.

Results

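Epithelial adhesion and barrier genes were followed in mammary tumors of PyMT mice with and without Cre. The 9 genes were Epcam, Cdh1, Cldn1, Cldn3, Cldn4, Cldn5, Cldn7, Ocln and Tjp1, taken by symbol from the 32285 genes counted, and each symbol matched 1 gene identifier. Each library was made from the tumor of 1 mouse at 17 to 18 weeks. Replicates 1 and 3 were MMTV-Cre-; Frmd8 fl/fl; PyMT mice (Cre-) and replicates 2 and 4 were MMTV-Cre+; Frmd8 fl/fl; PyMT mice (Cre+), so n = 2 mice per genotype. All 4 mice carried the floxed Frmd8 alleles and the PyMT oncogene, which drives mammary tumors. Cre was driven by the MMTV promoter, which is active mainly in mammary luminal epithelium, so deletion was not designed to reach stromal or immune cells. Barcodes with at least 1000 unique molecular identifiers (UMIs, 1 per captured RNA molecule) and at most 20% mitochondrial UMIs were kept.

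Tight junctions seal the space between neighboring epithelial or endothelial cells. Claudins are the 4-pass membrane proteins that form their strands and set which ions and solutes pass, occludin (Ocln) is another strand protein, and ZO-1 (Tjp1) is the scaffold that ties the strands to actin. E-cadherin (Cdh1) holds epithelial cells together at adherens junctions, and EpCAM (Epcam) is an epithelial surface adhesion protein that binds Cldn7. In the mammary gland Cldn3, Cldn4 and Cldn7 belong to the epithelium, whereas Cldn5 is the main claudin of blood vessel endothelium.

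Promoter windows from RefSeq (GRCm38.p6), each spanning 250 bases before to 50 bases after the annotated start, were found for 8 of the 9 genes, and Cdh1 had no entry. Both strands of each window were searched for 4 motifs. The first was the E-box bound by the Snail and Zeb repressors, with the letters CACCTG. The second was a core of the grainyhead-like factors, which are activators of epithelial genes, with the letters AACCGG. The others were a core shared by ETS family factors, which include Elf3 of epithelium and several endothelial regulators, with the letters CCGGAA, and the TATA box of core promoters, with the letters TATAAA. The E-box was present in the windows of 5 of the 8 genes, against 20.212% of all 32851 windows of the same length, and these 5 genes were Epcam, Cldn3, Cldn4, Cldn7 and Ocln. No E-box was matched in the windows of Cldn1, Cldn5 or Tjp1. For each motif a gene was counted if any of its windows matched, whereas the background is per window. Cldn7 and Ocln had 2 windows each, so the 2 measures are not alike. The Cldn7 window not shown held no E-box, and the windows of Ocln overlap. Shown are the epithelial genes Epcam (chr17:87635729-87636028, plus strand), Cldn3 (chr5:134985964-134986263, plus strand), Cldn4 (chr5:134946885-134947184, minus strand) and 1 of 2 windows of Cldn7 (chr11:69965171-69965470, plus strand), because they rose and fell together across cell classes, and Cldn5 (chr16:18776597-18776896, plus strand) for contrast, each 5′ to 3′ on the strand of its gene, with matches to any of the searched motifs in capitals.
Epcam: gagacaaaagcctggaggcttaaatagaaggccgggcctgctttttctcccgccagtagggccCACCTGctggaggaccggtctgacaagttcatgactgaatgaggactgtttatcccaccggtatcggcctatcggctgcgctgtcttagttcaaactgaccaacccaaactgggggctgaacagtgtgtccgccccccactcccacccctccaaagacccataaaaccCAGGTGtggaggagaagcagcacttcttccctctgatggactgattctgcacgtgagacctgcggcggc
Cldn3: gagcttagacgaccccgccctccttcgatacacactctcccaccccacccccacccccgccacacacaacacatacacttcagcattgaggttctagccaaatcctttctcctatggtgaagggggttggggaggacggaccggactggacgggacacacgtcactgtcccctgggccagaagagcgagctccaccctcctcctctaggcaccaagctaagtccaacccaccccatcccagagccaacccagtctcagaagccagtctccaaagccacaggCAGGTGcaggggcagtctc
Cldn4: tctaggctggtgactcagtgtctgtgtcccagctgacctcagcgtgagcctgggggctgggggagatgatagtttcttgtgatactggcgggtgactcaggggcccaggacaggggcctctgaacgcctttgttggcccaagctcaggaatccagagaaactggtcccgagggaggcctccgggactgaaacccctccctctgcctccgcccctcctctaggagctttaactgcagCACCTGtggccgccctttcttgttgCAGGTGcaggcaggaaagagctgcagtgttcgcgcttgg
Cldn7: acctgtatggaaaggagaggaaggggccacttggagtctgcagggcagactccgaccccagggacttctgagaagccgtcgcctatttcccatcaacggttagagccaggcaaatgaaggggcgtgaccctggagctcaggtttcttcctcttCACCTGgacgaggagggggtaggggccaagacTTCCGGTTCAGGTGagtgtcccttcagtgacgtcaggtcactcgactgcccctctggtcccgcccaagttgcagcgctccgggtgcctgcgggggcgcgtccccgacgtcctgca
Cldn5: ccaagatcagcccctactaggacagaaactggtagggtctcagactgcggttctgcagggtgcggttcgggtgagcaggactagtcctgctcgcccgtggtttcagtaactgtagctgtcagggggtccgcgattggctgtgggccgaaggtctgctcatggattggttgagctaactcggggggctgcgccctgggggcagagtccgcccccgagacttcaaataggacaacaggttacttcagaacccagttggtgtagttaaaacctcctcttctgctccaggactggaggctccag

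Counted from the annotated start as +1, the E-boxes began at -187 and -19 in Epcam, at 32 in Cldn3, at -14 and 12 in Cldn4 and at -97 and -57 in this window of Cldn7. In the same Cldn7 window the ETS core at -65 and the grainyhead-like core at -63 shared 4 of their 6 bases. The grainyhead-like core was found for 2 of the 8 genes, Cldn7 and Ocln, with a background of 6.834% of windows, and the ETS core for the same 2 genes, with a background of 14.898%. No TATA box was matched for any of the 8 genes, with a background of 13.616%. Cldn3 and Cldn4 are neighbors on chromosome 5, with starts 39280 bases apart on opposite strands. These matches describe letters in the windows, and binding was not measured.

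The libraries kept 4922, 5918, 5609 and 7123 barcodes (Cre- replicates 1 and 3, then Cre+ replicates 2 and 4), with medians of 12455 to 13073 UMIs per barcode. Classes were built from markers other than the 9 genes, with luminal barcodes taken by the keratins Krt8, Krt18, Krt19 and Krt7, and endothelial barcodes by 9 genes such as Pecam1, Kdr and Tie1. Between 68.4% and 79.6% of barcodes per library entered a class. Luminal barcodes numbered 1962, 1549, 1898 and 1867, basal barcodes 51, 129, 78 and 239, and endothelial barcodes 145, 123, 103 and 45, all in the order above. All 9 endothelial markers were detected in each endothelial sum (8127 to 10091 CPM summed, where CPM is UMIs of a gene per 1000000 UMIs of the class sum), and the 4 luminal keratins summed to 14.0 to 64.3 CPM there. Of basal barcodes, 75.3% to 93.0% also met the luminal keratin minimum, so the basal class was not free of luminal transcripts. Frmd8 in luminal sums was 24.0 and 24.0 CPM in Cre- and 5.01 and 11.1 CPM in Cre+ mice. In basal sums it was 30.6 and 25.2 CPM in Cre- and 7.55 and 6.89 CPM in Cre+ mice. Macrophage sums held 25.2 and 24.4 CPM against 19.6 and 14.0 CPM, and endothelial sums 32.4 and 33.9 CPM against 28.7 and 31.2 CPM. This 3′ readout lies outside the floxed exons and does not check the deletion itself. Replicate 4 was deposited with all barcodes and from another Cell Ranger version than the rest, so its value is given apart wherever a genotype difference depends on it.

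Epcam, Cldn3, Cldn4, Cldn7, Cdh1 and Ocln were high in each epithelial class of these tumors. Levels are CPM of the class sum, and they are compared within a gene and not between genes. Epcam in luminal sums was 2172 and 1555 CPM in Cre- and 1596 and 1330 CPM in Cre+ mice. Epcam therefore stayed above 1000 CPM in each mouse, and in macrophages, which do not make an epithelium, it was 11.2 to 24.96 CPM. Cldn3 was 1043 and 1169 CPM in Cre- and 979 and 1098 CPM in Cre+ luminal sums. Cldn7, the claudin bound by EpCAM, was 458 and 393 CPM in Cre- and 415 and 496 CPM in Cre+ luminal sums. For both claudins the genotypes overlapped. Cdh1 was 210.1 and 150.1 CPM in Cre- and 151 and 169.8 CPM in Cre+ luminal sums, and Ocln was 27.3 and 20.6 CPM against 26.2 and 26.9 CPM.

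**Figure D1:**
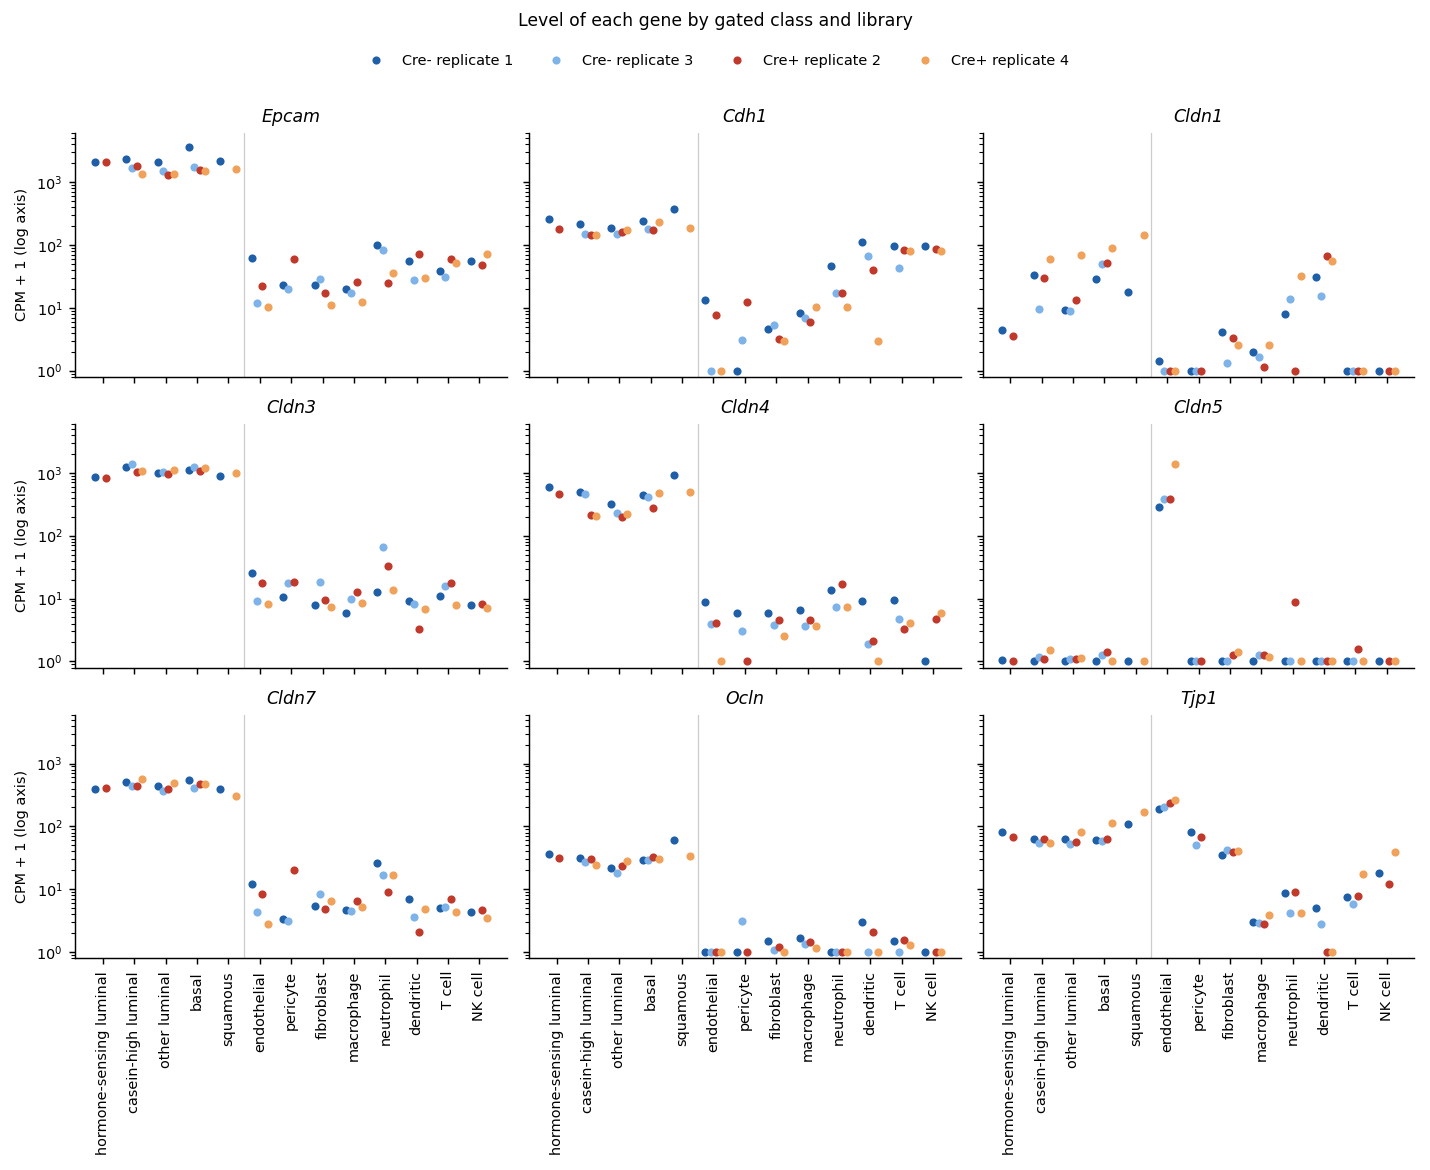
Level of each of the 9 genes (CPM + 1 of the class sum, log axis) in 13 gated classes, with 1 point per library in which the class held at least 20 barcodes, blue for Cre- and red or orange for Cre+. Epcam, Cldn3, Cldn4, Cldn7 and Ocln are high left of the gray line (epithelial classes) and low right of it, Cldn5 is high in the endothelial class, and Cdh1 keeps an intermediate level in T and NK cells.

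Outside the epithelium Cldn3 and Cldn7 were low in each class. Across macrophages, fibroblasts, T cells, NK cells and dendritic cells no library exceeded 17.1 CPM for Cldn3 or 7.48 CPM for Cldn7, and neutrophils, which held the shallowest barcodes, reached 63.8 CPM for Cldn3 and 25.5 CPM for Cldn7. Cldn3 per 100 Epcam UMIs was 48.0, 75.1, 61.4 and 82.5 in luminal sums and 39.3, 73.9, 78.6 and 80.0 in endothelial sums (replicates 1, 3, 2 and 4), the latter on 140, 23, 28 and 5 Epcam UMIs. The same ratio was 27.0, 48.4, 28.3 and 14.1 in T cell sums, 3.17 to 26.7 in dendritic sums and 8.77 to 15.4 in NK cell sums with at least 20 barcodes. It lay below the luminal ratio of the same library in each. These ratios rest on few Epcam UMIs, 64 to 163 in T cell, 15 to 63 in dendritic and 13 to 114 in NK cell sums. In barcodes of replicate 4 with at most 100 UMIs, which hold mostly free RNA, Epcam was 409 CPM and Cldn3 was 551 CPM, a ratio of 135 per 100 that also differed from the luminal 82.5 of that library. The part of free RNA in the low values was not tested.

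In single barcodes, thinned to 1000 UMIs each to equalize depth, a UMI of Epcam was found in 81.4% and 70.0% of Cre- and in 75.6% and 59.5% of Cre+ luminal barcodes. The other genes were seen less often at this depth. Of the 6 epithelial genes Epcam, Cdh1, Cldn3, Cldn4, Cldn7 and Ocln, at least 3 were detected together in 35.2% and 29.8% of Cre- and 23.2% and 27.2% of Cre+ luminal barcodes, and none in 6.32% to 16.2% of them. In endothelial barcodes at least 3 were never detected together, and 93.8% to 100% held none. A barcode's failure to show a gene at 1000 UMIs is not evidence that the cell lacked it.

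Endothelial cells carried another junction set, with Cldn5 and Tjp1 high and the 7 other genes low. Cldn5 in endothelial sums was 289 and 379 CPM in Cre- and 376 and 1379 CPM in Cre+ mice, while in luminal sums it never passed 0.174 CPM. The lowest endothelial value was thus far above each luminal value, and replicate 4 stood apart from the other 3 mice. Tjp1 was 189 and 205 CPM in Cre- and 234 and 259 CPM in Cre+ endothelial sums, against 51.9 to 77.6 CPM in luminal sums, 2.89 to 3.98 times higher within each mouse. Ocln had 0 UMIs in all 4 endothelial sums, 6221895 UMIs in all, and against the limit of 3 counts over these sums its luminal level was at least 52.5-fold higher. Cldn1 had 1 UMI in the endothelial sums, which gives a luminal to endothelial ratio of 163 with a 95% counting interval of 29.2 to 6437.

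Endothelial and luminal sums were compared with edgeR's quasi-likelihood test, with genotype as a covariate, across 14903 genes. Of the 9 genes 2 were called higher, against 20.4% of all genes tested, and 7 were called lower, against 26.4% of all genes. Cldn5 was higher by 12.37 on the log2 scale (SE 0.72, adjusted p = 2.97e-06) and Tjp1 by 1.69 (SE 0.17, adjusted p = 7.25e-05). Epcam fell by 6.11 (SE 0.55), Cldn3 fell by 6.28 (SE 0.38), Cldn4 fell by 6.37 (SE 0.38), Cldn7 fell by 6.15 (SE 0.39) and Cdh1 fell by 5.04 (SE 0.68), each with an adjusted p of 0.000395 or less, n = 4 mice per class in this model across all genes. The median over the 9 genes was -6.15, or -6.11 with Ocln at its bound, beside -0.21 over all genes tested. The same 9 calls were made in each of the 11 alternative settings, blocking on the mouse among them.

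**Figure D2:**
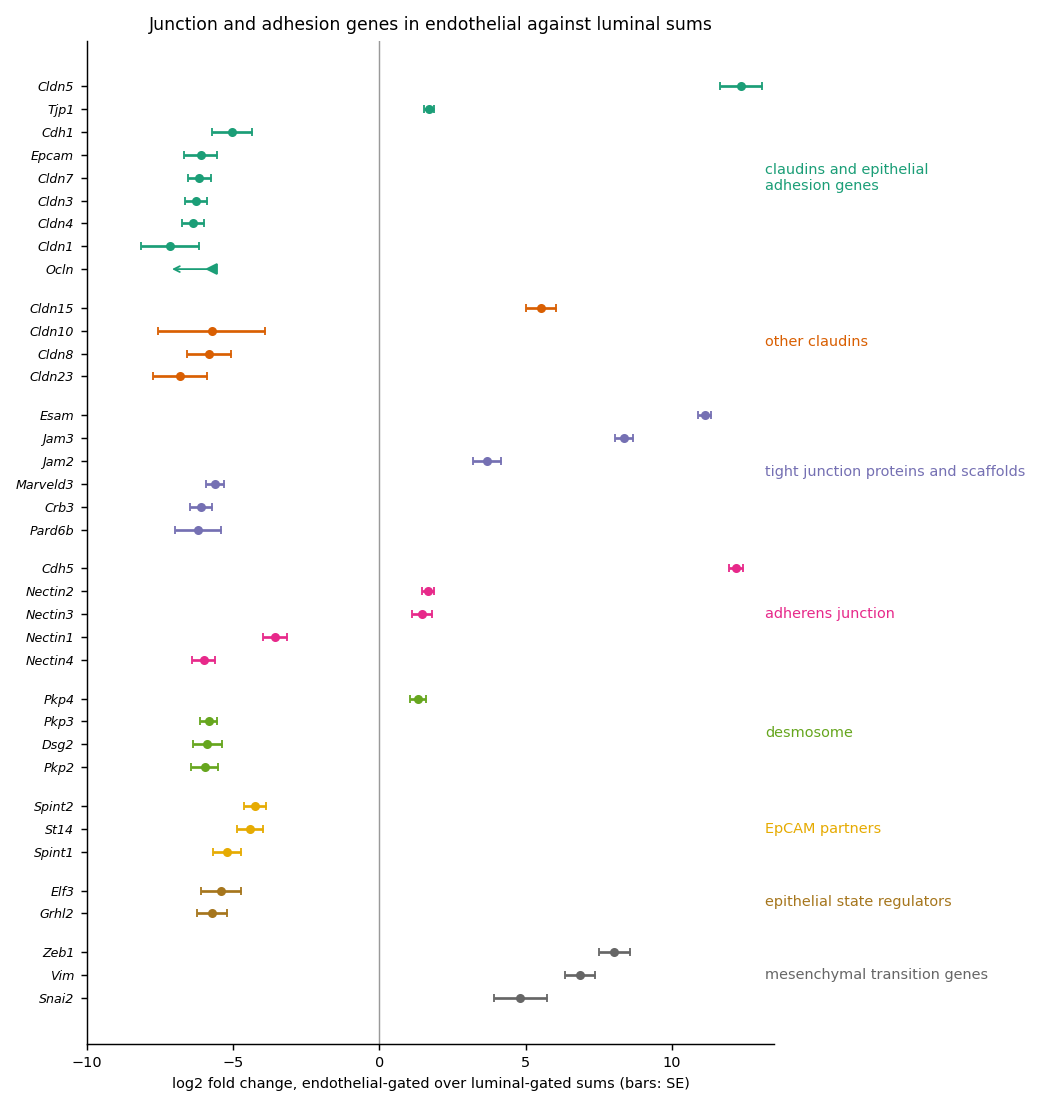
Log2 fold change of endothelial-gated over luminal-gated sums (points, with SE as bars; 4 mice per class) for the 9 genes and for called genes of 7 further lists. Cldn5, Esam and Cdh5 lie farthest to the right, above 11 on the log2 scale, and the arrow marks Ocln, with 0 endothelial UMIs, at its bound.

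Other junction genes were read from 7 lists of related genes. Of the other claudins, 6 of 16 in the files were tested, with 1 higher and 4 lower. Cldn15 was higher in endothelial sums by 5.53 (SE 0.52), at 7.34 to 10.9 CPM there, and Cldn23 and Cldn8 fell by 6.82 (SE 0.92) and 5.83 (SE 0.74). Cldn10 fell by 5.74 (SE 1.84, edgeR adjusted p = 0.0309), with overlapping ranges and with no call once replicate 1, 2 or 4 was left out. Of 22 tight junction proteins and scaffolds, 5 were higher and 14 lower (median -2.39). Those highest in endothelium were Esam (11.12, SE 0.23), an endothelial cell adhesion molecule, Jam3 (8.36, SE 0.31) and Jam2 (3.68, SE 0.47), and those lowest were the polarity genes Pard6b (-6.20, SE 0.78) and Crb3 (-6.102, SE 0.39) and the occludin relative Marveld3 (-5.63, SE 0.31). The adherens junction list differed in balance, with 8 of 14 genes higher and 2 lower (median 0.60). Cdh5, the endothelial VE-cadherin, was higher by 12.19 (SE 0.24), Nectin2 by 1.66 (SE 0.20) and Nectin3 by 1.45 (SE 0.33), whereas Nectin4 fell by 6.01 (SE 0.40) and Nectin1 fell by 3.58 (SE 0.41).

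Desmosome genes, which build the spot junctions of epithelium, were lower for 9 of 10 tested, led by Pkp2 (-5.97, SE 0.46), Dsg2 (-5.88, SE 0.50) and Pkp3 (-5.83, SE 0.29), and Pkp4 alone was higher (1.33, SE 0.27). All 3 EpCAM partners reported were lower, namely the protease inhibitors Spint1 (-5.21, SE 0.48) and Spint2 (-4.25, SE 0.38) and the membrane protease St14 (-4.43, SE 0.45). All 9 epithelial state regulators were lower (median -5.00, or -4.65 with Grhl3, listed with 0 endothelial UMIs, at its bound), including the grainyhead factor Grhl2 (-5.72, SE 0.50) and Elf3 (-5.41, SE 0.70). Of 8 mesenchymal transition genes tested, 7 were higher, led by Zeb1 (8.03, SE 0.54), Vim (6.87, SE 0.52) and Snai2 (4.82, SE 0.90), all of which endothelial cells also use. These calls were made by edgeR's quasi-likelihood test with Benjamini-Hochberg adjustment over all genes.

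Within the epithelium Cldn4 and Cldn1 varied among subclasses, and hormone-sensing sums were high in Cldn4 and low in Cldn1 in both mice with at least 20 such barcodes. Hormone-sensing luminal barcodes were marked by genes such as Esr1, Pgr and Prlr, casein-high barcodes by milk protein genes such as Csn2 and Csn3, and the remaining luminal barcodes form the other luminal subclass. Hormone-sensing barcodes numbered 277 and 8 in Cre- and 65 and 0 in Cre+ mice, and squamous barcodes 37, 3, 6 and 67, so only libraries with at least 20 barcodes of a class are used for its level. Cldn4 in hormone-sensing sums was 594 CPM for replicate 1 (Cre-) and 462 CPM for replicate 2 (Cre+), against 320 and 196 CPM in the other luminal barcodes of the same mice. Casein-high Cldn4 lay nearer to the hormone-sensing level in replicate 1, at 490 CPM, than in replicate 2. In squamous sums Cldn4 reached 904 CPM for replicate 1 (Cre-) and 494 CPM for replicate 4 (Cre+), the highest level of the gene in each of these mice. Ordered by mean, Cldn4 ran from squamous through hormone-sensing, basal and casein-high to other luminal sums, and each neighboring pair in this order overlapped in its range over libraries.

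Cldn1 is the claudin that in skin seals the outer layers. In the same hormone-sensing sums Cldn1 was 3.49 and 2.57 CPM, against 32.8 and 28.7 CPM in casein-high sums of the same 2 mice. Other luminal sums, used above for Cldn4, held 8.09 CPM of Cldn1 in replicate 1 and at least 7.72 CPM in each library. The gap in replicate 1 was thus smaller against other luminal than against casein-high sums. Cldn1 was lowest of the epithelial classes where Cldn4 was among the highest. In squamous sums it was 16.6 CPM for replicate 1 (Cre-) and 144 CPM for replicate 4 (Cre+), so the 2 mice were far apart. Luminal barcodes with a Cldn4 UMI at 1000 UMIs had more Cldn1 than those without in all 4 libraries (22.1 against 14.2 CPM, 10.5 against 7.34 CPM, 29.6 against 18.2 CPM and 93.9 against 61.4 CPM in replicates 1, 3, 2 and 4). Epcam, Cdh1, Cldn3, Cldn7, Ocln and Tjp1 were also higher in barcodes with a Cldn4 UMI in all 4 libraries, so the rise was not particular to Cldn1. These barcodes also had a higher median depth, for example 38812 against 22052 UMIs in replicate 1, and the part of depth was not tested.

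**Figure D3:**
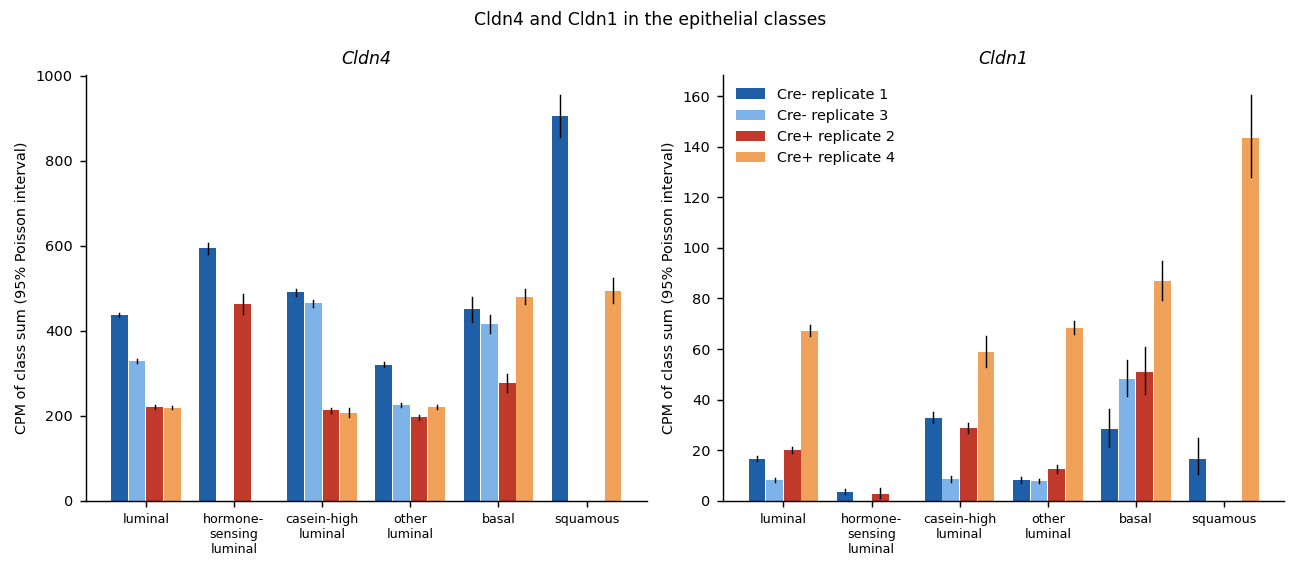
CPM of Cldn4 and Cldn1 in the whole luminal class and in each epithelial class with at least 20 barcodes, 1 bar per library, with exact 95% Poisson intervals that cover counting error only. Cldn4 is highest in squamous and hormone-sensing sums and lower in both Cre+ than in both Cre- casein-high sums, and Cldn1 is highest in Cre+ replicate 4 wherever that library has a bar.

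The remaining genes varied less within the epithelium. Epcam had class means from 1532 ± 353 CPM in other luminal (SD, n = 4) to 2095 ± 1025 CPM in basal sums (SD, n = 4), with overlapping ranges throughout. Cldn3 was 833 ± 31.3 CPM in hormone-sensing sums (SD, n = 2) and 1165 ± 158 CPM in casein-high sums (SD, n = 4). Cdh1 ranged from 162 ± 35.8 CPM in casein-high sums (SD, n = 4) to 274 ± 128 CPM in squamous sums (SD, n = 2). Ocln was 46.5 ± 19.3 CPM in squamous sums (SD, n = 2) and 21.9 ± 4.37 CPM in other luminal sums (SD, n = 4). Tjp1 ran from endothelial (221 ± 31.0 CPM, n = 4) through squamous (140.3 ± 42.8 CPM, n = 2) to basal sums (72.7 ± 26.5 CPM, n = 4), and the endothelial range lay above that of the squamous sums while all neighbors from squamous down to casein-high luminal overlapped. Cldn3 in hormone-sensing sums lay below its range in each other epithelial class, and Cldn7 in squamous sums (347 ± 67.5 CPM, SD, n = 2) lay below its range in hormone-sensing sums. For Epcam, Cdh1, Cldn4 and Ocln the ranges of neighboring epithelial classes overlapped throughout, and a gap came between the lowest epithelial class and the next class in the order.

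Basal cells carry Krt5 and Krt14 and lie under the luminal layer, and the basal-gated sums were compared with luminal sums in the same way. The 4 luminal keratins summed to 7976, 4841, 4059 and 5564 CPM in basal sums (replicates 1, 3, 2 and 4). In luminal sums they were lower in each mouse, at 5900, 1940, 3208 and 4340 CPM. Most basal-gated barcodes thus carried both keratin sets, and the comparison does not isolate the basal layer. By the unpaired test none of the 8 genes tested was called, against 1.6% of 14972 genes called higher and 0.688% called lower, and 1 of the 8, Cldn1, had an unadjusted p under 0.05. Cldn1 was 28.2 and 48.3 CPM in Cre- and 50.7 and 86.9 CPM in Cre+ basal sums, against 16.5 and 8.08 CPM in Cre- and 20.1 and 67.3 CPM in Cre+ luminal sums. The basal value was higher in 4 of 4 mice, by 1.29 to 5.97 times. Its log2 fold change was 1.15 (SE 0.48, edgeR adjusted p = 0.275). Both sums come from the same mouse, and with the mouse entered as a blocking term Cldn1 was called higher (1.25, SE 0.31, adjusted p = 0.0260) while 7.86% of 15681 genes were called higher. With these gates the keratins do not separate the classes cleanly, and the share of basal barcodes that also met the luminal minimum is given above.

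Few junction genes of the lists were called between basal and luminal sums by the unpaired test. The actin linker Vcl was higher by 1.19 (SE 0.23, adjusted p = 0.0418) and the desmosome gene Perp by 1.11 (SE 0.17, adjusted p = 0.0213) by edgeR. Of 8 mesenchymal transition genes tested, Fn1 (2.94, SE 0.51) and S100a4 (2.64, SE 0.38) were called higher. No gene of the other claudins (5 tested), tight junction scaffolds (21), EpCAM partners (3) or epithelial state regulators (9) was called by this test. With the mouse as a block, 1233 of 15681 genes were called higher and 1091 lower. The lists were not counted in that fit, so few calls here may not hold there.

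The genotype comparison asks whether the Cre+ genotype goes with a change in these genes. In luminal sums none of the 8 genes tested was called by edgeR (0% of 15681 genes were called, 379 had an unadjusted p under 0.05, and DESeq2 called 46 genes, none of them among the 8). Cldn5 had too few luminal UMIs to be tested. In simulated data of this design the test recovered 0 of 98 planted log2 changes of 1 and 1 of 97 of 2. The simulation gave all genes the same dispersion (spread between mice), 0.195. The SEs of the 8 genes were 0.24 to 0.75, so this recovery does not apply to each of them alike. With 2 mice per genotype, a lack of calls in luminal sums still cannot show that these genes were unchanged. Cldn4 was 438 and 328 CPM in Cre- and 220.1 and 219 CPM in Cre+ luminal sums, so both Cre+ mice lay below both Cre- mice. Its log2 fold change was -0.74 (SE 0.24, unadjusted p = 0.0309, adjusted p = 1.00, edgeR). In casein-high sums alone Cldn4 was 490.1 and 464 CPM in Cre- and 212 and 207 CPM in Cre+ mice, a fold change of -1.12 (SE 0.29, adjusted p = 0.998). In other luminal sums it was 320 and 225 CPM in Cre- and 196 and 220.1 CPM in Cre+ mice, a fold change of -0.32 (SE 0.25). The subclass fits were added after the data had been seen. Without replicate 4 the luminal fold change was -0.83 (SE 0.28, adjusted p = 1.00).

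Cldn1 moved the other way, from 16.5 and 8.08 CPM in Cre- to 20.1 and 67.3 CPM in Cre+ luminal sums. The genotypes did not overlap, but replicate 4 alone made most of the difference, since the fold change of 1.95 (SE 0.75, adjusted p = 1.00) became 0.67 (SE 0.49) without it by edgeR. In casein-high sums alone the Cldn1 levels of the genotypes overlapped, since replicate 1 (Cre-) lay above replicate 2 (Cre+), as given above. In whole luminal sums Cldn1 and Cldn4 were the 2 of 8 genes without overlap between genotypes, beside 27.9% of all 15681 genes. Epcam had a fold change of -0.29 (SE 0.29), Cdh1 of -0.09 (SE 0.27), Cldn3 of -0.01 (SE 0.25), Cldn7 of 0.18 (SE 0.25), Ocln of 0.22 (SE 0.24) and Tjp1 of 0.30 (SE 0.28). For these 6 genes the luminal levels of the genotypes overlapped. In the 7 further lists no gene was called in luminal sums, and the medians lay between -0.90 (other claudins, 8 tested) and 0.04 (desmosome, 11 tested), beside 0.02 over all genes.

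The share of luminal barcodes with a Cldn4 UMI at 1000 UMIs was 23.4% and 18.9% in Cre- and 10.1% and 15.3% in Cre+ mice, again without overlap, as for 24.4% of all genes seen in luminal barcodes at this depth, and without thinning it was 71.2% and 67.5% against 44.1% and 54.7%. Median luminal depths before thinning were 26938 and 28357 UMIs in Cre- and 16808 and 16170 UMIs in Cre+ mice. Depth was thus lower in both Cre+ mice, and its part in the shares without thinning was not tested. In macrophages, which should lack the gene, the share at 1000 UMIs was 0.339% to 1.07%, and the median depths before thinning were 11400 to 17284 UMIs. The difference of means was -8.43 percentage points with p = 0.333 by a two-sided exact permutation test, the smallest p that 2 against 2 mice allow. Over all 27 such tests of 9 genes in 3 classes the adjusted p was 1. At 1000 UMIs the genotypes did not overlap for 3 of the 9 genes in luminal, 3 in basal and 1 in endothelial barcodes, beside 24.4%, 26.6% and 27.6% of all genes seen in these classes. At 2000 UMIs the counts were 2, 1 and 3 of the 9 genes, beside 24%, 27.8% and 28.2% of all genes. Without thinning they were 6, 4 and 2 of the 9 genes, beside 48.6%, 34.4% and 39.2% of all genes.

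In basal sums 4 of the 8 genes tested did not overlap between genotypes, beside 33.9% of 11000 genes, and none was called by edgeR (0% of genes, 471 with an unadjusted p under 0.05, 32 called by DESeq2). Epcam was 3625 and 1718 CPM in Cre- and 1542 and 1495 CPM in Cre+ basal sums (fold change -0.72, SE 0.39). Replicate 1 (Cre-), with 51 basal barcodes, made most of this difference, and over the settings run the fold change ranged from -1.16 to -0.097. Cldn1 (0.95, SE 0.41), Tjp1 (0.68, SE 0.36) and Ocln (0.19, SE 0.24) were higher in both Cre+ mice, and each had an adjusted p of 0.996 by edgeR. Tjp1 was 59.7 and 57.4 CPM in Cre- and 61.2 and 112 CPM in Cre+ basal sums, so replicate 4 made most of its difference. Ocln differed little, at 28.2 and 28.6 CPM against 31.4 and 29.3 CPM. Its mean barcode share at 1000 UMIs went the other way, at 2.92% in Cre- and 1.27% in Cre+ mice without overlap, and overlapped at 2000 UMIs. Cldn4, at 449.6 and 416 CPM in Cre- and 276 and 480.0 CPM in Cre+ basal sums, overlapped. The low Cldn4 of Cre+ luminal sums was therefore not seen in the basal sum of replicate 4, and this difference between classes was not tested. The share of basal barcodes with a Cldn4 UMI at 1000 UMIs averaged 30.4% ± 1.35 (SD, n = 2) over Cre- and 24.8% ± 3.06 (SD, n = 2) over Cre+ mice, without overlap, as for 26.6% of all genes seen in them, but at 2000 UMIs the genotypes overlapped (35.5% ± 7.84 and 33.2% ± 1.61, SD, n = 2 each).

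Endothelial Cldn5 had the largest genotype difference of the 6 genes tested in endothelial sums, and it came from 1 mouse. Its level in Cre+ replicate 2 (376 CPM) lay between the 2 Cre- values, and that in Cre+ replicate 4 (1379 CPM) was 3.64 times the next highest. The fold change of 1.43 (SE 0.53, unadjusted p = 0.0275, edgeR adjusted p = 0.924) was 0.15 (SE 0.28) without replicate 4. Without replicate 2 it was 2.11 (SE 0.23, adjusted p = 0.000137), where replicate 4 stands alone for Cre+ and is assumed to vary like the Cre- mice. It was also called without the filter on low counts (1.39, SE 0.23, adjusted p = 5.89e-07). In this comparison 0.0105% of 9519 genes were called, which is the chemokine gene Cxcl10 alone (fold change -4.93, SE 0.40, edgeR adjusted p = 0.0178), and Tjp1 (0.34, SE 0.21) was the 1 gene of the 6 without overlap, beside 35.3% of all genes.

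A UMI of Cldn5 at 1000 UMIs was present in 17.2% (95% exact interval 11.5 to 24.4) and 22.0% (15.0 to 30.3) of Cre- and in 25.2% (17.2 to 34.8) and 57.8% (42.2 to 72.3) of Cre+ endothelial barcodes. Without thinning these shares were 58.6%, 60.2%, 68.9% and 88.9%. Luminal barcodes showed it in 0% to 0.161% at 1000 UMIs. The genotypes did not overlap in the endothelial share, as for 27.6% of all genes seen in endothelial barcodes at 1000 UMIs. In replicate 4 a Cldn5 UMI was found in 40 of 45 endothelial barcodes without thinning and in 26 at 1000 UMIs. Other endothelial genes of that mouse lay near or away from the rest. Near it were Cdh5 at 1730 CPM beside 1406 to 1700 CPM and Esam at 987 CPM beside 783 to 910 CPM. The 9 endothelial markers, by which these barcodes were chosen, summed to 8808 CPM beside 8127 to 10091 CPM. Away from the rest were the marker Ptprb at 374 CPM beside 627 to 783 CPM, Nectin2 at 167 CPM beside 98.4 to 103 CPM, Pkp4 at 38.5 CPM beside 103 to 109 CPM and Snai2 at 1.83 CPM beside 17.4 to 27.6 CPM. Fn1, encoding fibronectin, was also apart, at 811 CPM in replicate 4 beside 50.6 to 70.0 CPM in the other 3. Fibroblast markers were 31.2 CPM there and 34.1 to 86.1 CPM in the others. The median depth of these 45 barcodes was 8744 UMIs, beside 11011 to 14242 UMIs. Jam2 was lowest there, at 69.7 CPM beside 105 to 188 CPM.

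**Figure D4:**
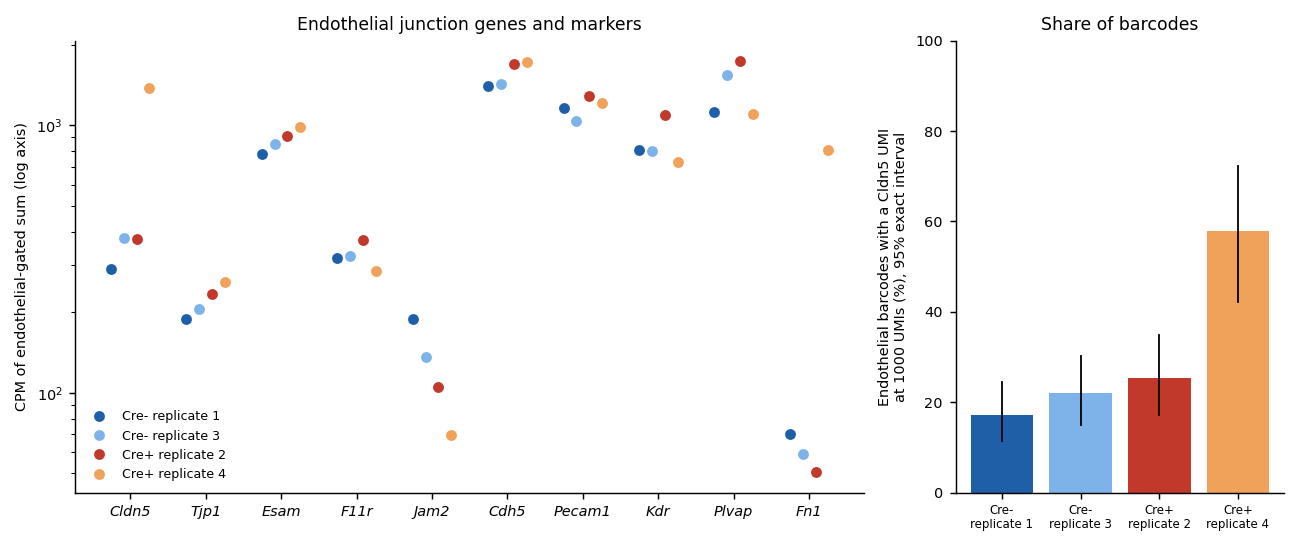
Left, CPM (log axis) of Cldn5, Tjp1 and other junction genes and markers in the endothelial-gated sum of each library. Right, percent of endothelial barcodes with a Cldn5 UMI after thinning to 1000 UMIs, with exact 95% intervals. Cldn5 and Fn1 of Cre+ replicate 4 lie apart from the other 3 mice, while Cdh5, Esam and Pecam1 do not.

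Cdh1 and Epcam were higher in T and NK cells than in macrophages of the same mice. Epcam was not particular to them, with means of 60.3 CPM in neutrophils and 45.2 CPM in dendritic cells beside 57.4 CPM in NK and 44.2 CPM in T cells. Neutrophil Cdh1, at 9.43 to 45.0 CPM, also lay above the macrophage range. The 1 B cell sum with at least 20 barcodes held 9.71 CPM of Cdh1. Epcam in T cell sums was 37.6 and 30.3 CPM in Cre- and 59.1 and 49.7 CPM in Cre+ mice, against 18.9 and 15.9 CPM and 24.96 and 11.2 CPM in macrophage sums. For Cdh1, T cell sums held 95.05 and 42.6 CPM in Cre- and 81.4 and 77.5 CPM in Cre+ mice, and NK cell sums with at least 20 barcodes held 94.6 CPM in Cre- and 84.4 and 80.3 CPM in Cre+ mice. Macrophage sums of the same mice had 4.88 to 9.14 CPM, and no T cell value overlapped them. Per 100 Epcam UMIs, Cdh1 was 138 to 253 in T cell sums and 9.45 to 12.8 in luminal sums. The 2 genes thus did not keep the luminal ratio in T cells. Macrophage sums, at 19.6 to 81.5, and fibroblast sums, at 13.4 to 19.2, also lay above it, so this was not particular to T cells. At 1000 UMIs a Cdh1 UMI was found in 10.3%, 2.46%, 7.87% and 7.82% of T cell barcodes (replicates 1, 3, 2 and 4), against 0.812% to 1.28% of macrophages, with median depths of 6170 to 12122 and 11400 to 17284 UMIs, and without thinning in 18.9% to 49.4% of T cell barcodes against 5.83% to 11.4% of macrophages. T cell barcodes with a Cdh1 UMI, 7 to 24 per library, had 536 to 766 CPM of Cd3e, a marker used to choose the class, against 422 to 590 CPM in those without, and the value was higher in each library. In all 4 libraries they also had more Itgae, a subunit of an integrin that binds E-cadherin. Its values were 491 against 202 CPM, 325 against 135 CPM, 328 against 260 CPM and 266 against 221 CPM. Epcam was 87.8 against 32.1 CPM, 57.4 against 29.6 CPM, 57.6 against 59.2 CPM and 55.4 against 49.2 CPM in the same order. It was thus also higher with a Cdh1 UMI except in replicate 2, on 3 to 17 Epcam UMIs. Cldn3 and Cldn7 had at most 3 UMIs in the barcodes with a Cdh1 UMI. Itgae was chosen after the values of Cdh1 had been seen, and no test was made on these few barcodes.

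**Figure D5:**
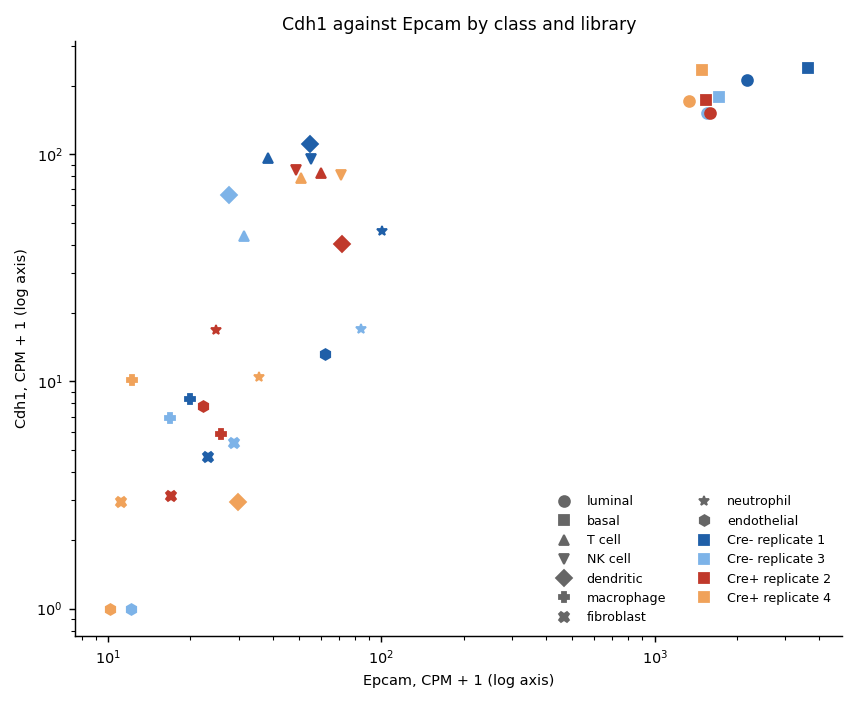
Cdh1 against Epcam (CPM + 1, both log axes) for 9 gated classes, with the class as the symbol and the library as the color; class sums with under 20 barcodes are left out. Luminal and basal sums sit at the upper right, and T and NK cells lie above macrophages, fibroblasts and endothelial cells in Cdh1, and above macrophages and fibroblasts in Epcam.

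Dendritic cells held Cldn1, at 30.0 and 14.3 CPM in Cre- and 66.4 and 54.1 CPM in Cre+ mice, above the luminal sum of the same mouse in 3 of 4 mice. T and NK cells had 0 UMIs of Cldn1. Dendritic Cldn1 per 100 Epcam UMIs was 53.3 to 187, beside 0.520 to 5.06 in luminal sums. Dendritic Cdh1 ranged from 1.93 CPM in Cre+ replicate 4 to 110.1 CPM in Cre- replicate 1, with 25 to 63 barcodes per library, so its level differed between mice by more than that of T cells. Tjp1 was 33.9 to 41.6 CPM in fibroblasts and 49.9 to 79.7 CPM in the 3 pericyte sums with at least 20 barcodes, but 1.80 to 2.89 CPM in macrophages.

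Likeness was measured as Pearson's r of log2(CPM + 1) over 48 class-by-library sums for 12548 genes, as a description without a test, since sums share libraries and the luminal keratins built the classes. The closest genes to Epcam were Krt8 (0.97), Krt18 (0.96) and Cldn7 (0.96). Cldn3 was closest to Fxyd3 (0.98), Kdf1 (0.97) and Marveld3 (0.97), Cldn7 to Cldn3 (0.97), Marveld3 (0.96) and Krt18 (0.96), and Cldn4 to Rab25 (0.96), Krt18 (0.96) and Cldn3 (0.95). Ocln was closest to Prss8 (0.97), Macc1 (0.96) and Tmem125 (0.96). The endothelial claudin Cldn5 stood with Robo4 (0.97), Disp2 (0.97) and Tie1 (0.97), the last of which is a marker of the class. Lower values were reached by Cdh1, with Tuba4a (0.87), Hook1 (0.86) and Krtcap3 (0.85), by Cldn1, with Pak1 (0.78), Bcl2l14 (0.77) and Cd24a (0.76), while Tjp1 was close to Nckap1 (0.93), Nedd4 (0.91) and Vangl1 (0.89). Among the 9 genes the values for Epcam, Cldn3, Cldn4, Cldn7 and Ocln with each other were 0.94 to 0.97, those of Cdh1 with these 5 were 0.71 to 0.83 and those of Cldn5 with the same 5 were -0.31 to -0.19.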

How the data were processed

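Mammary tumors of 4 mice (2 Cre-, 2 Cre+) were profiled with 10x Genomics 3′ v3 chemistry, 1 library per mouse, on sorted viable cells. As deposited, the values are UMI counts, not normalized, that the authors made with Cell Ranger (version 6.1.2 for replicates 1 to 3 and version 4 for replicate 4 per the file headers), and libraries were not pooled. Replicate 4 was deposited with all 2582424 barcodes, the others as called cells of at least 500 UMIs. The labels name the build hg38 while the gene identifiers are mouse, so the alignment build is not settled, and coordinates are those of RefSeq. No column of authors' comparisons was used, and no deposited cell annotation was used here.

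Barcodes with at least 1000 UMIs and at most 20% mitochondrial UMIs were kept, with 107848230 to 134882211 UMIs per library. A class needed at least 3 UMIs over at least 2 of its markers and at least 5 marker UMIs per 10000. Other lineages had to lie under 5 per 10000, with exceptions. For non-epithelial classes the basal limit was under 2 UMIs of Krt5, Krt14, Krt17 and Trp63 together. Between pericytes and fibroblasts the larger marker score decided. Basal barcodes also needed at least 2 UMIs of Krt5, Krt14, Krt17 or Trp63, and casein-high barcodes at least 100 milk gene UMIs per 10000. Luminal barcodes had to lie under 5 basal marker UMIs per 10000, but basal barcodes had no limit on luminal markers. Barcodes that met the marker minimum of more than 1 lineage numbered 401 to 791 per library. They were thereby left out, apart from those kept by the exceptions. This was the treatment of doublets, and no doublet caller was run. Libraries shared 6 to 16 barcode sequences per pair, at most 0.325% of the smaller library. The gates were set after marker counts had been seen. Between 2.5 and 5 endothelial marker UMIs per 10000 lay 85 to 138 barcodes per library.

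Counts were summed per class and library and tested with edgeR 4.0.16 (TMM, filterByExpr, quasi-likelihood test, Benjamini-Hochberg adjustment, threshold 0.05). DESeq2 1.42.0 was an alternative. Other alternatives were no filter on low counts, each library left out, a higher UMI minimum for replicate 4 (10978 UMIs), the study's limits on genes and UMIs, a stricter gate, thinning to 1000 UMIs and a mouse block. Same-numbered sums come from the same mouse. Their deviations correlated at 0.179 to 0.194 (endothelial and luminal) and 0.606 to 0.699 (basal and luminal). Scripts were tested on simulated data, with the same dispersion for all genes of a comparison and planted log2 changes of 1 and 2. Of these, the basal genotype test recovered 2 of 96 and 52 of 98, and the endothelial genotype test 15 of 99 and 87 of 98. The endothelial against luminal test recovered 7 of 96 and 68 of 97, and the basal against luminal test 8 of 96 and 80 of 99. Recovery for the luminal genotype test is given above. Shares of barcodes with a UMI have exact 95% binomial intervals and levels exact 95% Poisson intervals. PCR is corrected by UMIs, and both cover counting error only. Genotypes were compared over mice, with n = 2 each. The edgeR p-values set a difference against the spread between mice, estimated partly from the other genes tested.

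The 9 genes and all lists were chosen with earlier results of these data known. Named genes were these 9, from each list up to 3 called genes per direction with the largest fold change, and the 3 genes most like each of the 9. A gene of the EpCAM partner list is not reported here.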

Additional observations from a re-analysis of the deposited data

Results flagged for a closer look

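In 18 sets of 4 mice (the log2(CPM + 1) difference between endothelial or basal and luminal sums, for each of the 9 genes), 2 had 1 mouse far from the other 3, and chance alone gives about 1 in 20. For Cldn5, endothelial minus luminal, Cre+ replicate 4 stood at 10.20 while the next mouse was at 8.45 and the lowest at 8.16. For Ocln, Cre- replicate 3 stood at -4.44 while the others lay between -4.82 and -4.77. Since Ocln had 0 endothelial UMIs in all mice, its difference only follows the luminal level, 20.6 CPM in Cre- replicate 3 beside 26.2 to 27.3 CPM.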

How the results depend on the processing

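The 9 endothelial against luminal calls kept their direction and call in all 11 alternatives. Genes called overall went from 6972 to 2856 with the stricter gate, 2922 with barcodes thinned to 1000 UMIs and 4648 to 6921 with a library left out. For basal against luminal sums, 342 genes became 1230 with DESeq2, 749 without the low-count filter, 42 under the study's limits, 58 with thinning, 32 to 539 with a library left out (32 without replicate 1, 35 without replicate 3, 539 without replicate 2) and 2324 with the replicate block, which also called 1 of the 9 genes, Cldn1. The block changed no other call among the 9 genes. By genotype, luminal calls went from 0 to 46 with DESeq2 and 0 to 1 with a library left out. Basal calls went from 0 to 32 with DESeq2, 345 without the filter and 0 to 236 with a library left out (236 without replicate 2). Endothelial calls went from 1 to 5 with DESeq2, 210 without the filter, 2 with thinning, 0 under the higher minimum for replicate 4, the study's limits and the stricter gate, and 10 to 244 with a library left out (10, 244, 11 and 42 without replicates 1 to 4). Among the 9 genes, 1 (Cldn5) was called without the filter, and 0 to 1 with a library left out. Genes of the 9 whose shares of barcodes did not overlap between genotypes went from 3 to 6 in luminal barcodes not thinned, from 3 to 1 in basal barcodes at 2000 UMIs, and from 1 to 3 at 2000 UMIs or 2 not thinned in endothelial barcodes, with the shares over all genes given above. The cause of these changes was not tested. The stricter gate was not run for basal sums, which then held 1 barcode in 1 library. Depth limits Ocln and Cldn1 in endothelial sums, of 45 to 145 barcodes per library, and 2 mice per genotype limit each genotype comparison.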
